A study of Mus musculus with 12 samples.

Results

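Tight junctions are belts of strand-forming proteins near the apical border of epithelial cells, where they set which ions and molecules pass between neighbouring cells. The strands are built of claudins, some of which form ion-selective pores and others of which tighten the seal, together with the membrane protein occludin. They are held to the actin cytoskeleton by cytoplasmic scaffolds such as ZO-1. The adhesion molecule JAM-A is a further membrane protein of the junction. In the small intestine the junction is remodelled as cells leave the crypt for the villus, and leak-forming claudins are known from crypts while several sealing claudins are known from differentiated cells.

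The genes described are 10 tight junction genes, taken by their symbols from the 34245 gene rows of a table of raw read counts: the pore claudins *Cldn2* and *Cldn15*, the claudins *Cldn3*, *Cldn4*, *Cldn7*, *Cldn8* and *Cldn23*, occludin (*Ocln*), JAM-A (*F11r*) and ZO-1 (*Tjp1*). All 10 had a row, and all 10 passed the filter on low counts in each comparison. Poly(A)+ RNA was sequenced from stem cells (ISC) and from adult enterocytes (AE) of the small intestine of male mice, at a mean age of about 8 months (young) and about 27 months (aged), with 3 libraries in each of the 4 groups. All mice were C57BL/6 Lgr5-GFP animals, which carry the Lgr5-EGFP-IRES-CreERT2 knock-in at the *Lgr5* locus, and no treatment is named. ISC were sorted from crypt suspensions by high GFP, so that they are defined by the activity of the *Lgr5* locus, and AE from villus suspensions by high Epcam in the absence of CD31 and CD45, a gate that takes in villus epithelial cells of every kind. The study asked how expression in the 2 cell types changes with age.

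Libraries are named by the code that heads their column, Y for young and O for aged. That code disagrees with the remainder of the sample title in 8 of 12 titles, so columns were grouped by the words in their own names. Markers matched the cell type of the column name in all 12 libraries, with *Lgr5* at 79.7 to 146 CPM in ISC and 0.550 to 4.72 CPM in AE and *Apoa1*, an enterocyte apolipoprotein, at 80.5 to 1053 CPM in ISC and 11611 to 21489 CPM in AE. No gene was used to check the age. CPM are counts per 1000000 counts of the library, its total being scaled by a TMM factor. Totals lay between 11893817 and 26796461 counts in 11 libraries, and the young AE library Y3 held 110794420. A value of 3 counts, taken as the limit of detection, stood for 0.0359 CPM in that library and for 0.0842 to 0.327 CPM in the others.

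The AE libraries held more than absorptive cells. The summed CPM of 7 goblet cell markers, in 11 rows because *Muc2* has several, was 30063 to 61888 in AE and 1549 to 2412 in ISC, and that of 8 enteroendocrine markers was 2805 to 6988 in AE and 238 to 724 in ISC. Paneth cell markers summed to 553 to 1645 CPM in ISC and 52.1 to 228 CPM in AE. Markers of T cells and intraepithelial lymphocytes summed to 3.06 to 22.1 CPM in ISC and 18.0 to 56.9 CPM in AE, and those of endothelium to 11.1 to 15.2 CPM and 2.84 to 5.48 CPM. In any library the myeloid markers summed to at most 24.3 CPM, those of stroma to at most 2.57 CPM and those of B and plasma cells to at most 1.34 CPM. The part of these cells in the levels of the 10 genes was not tested. All 10 stem cell markers together summed to 5935 to 8400 CPM in ISC, 97.0 to 644 CPM in young AE and 111 to 188 CPM in aged AE, and none of them was at 0 in every library of a group. Bulk counts cannot tell fewer cells of a type from less RNA per cell.

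AE and ISC differed in nearly all of these genes, and in opposite directions. In AE of young mice *Cldn4*, *F11r*, *Cldn23*, *Cldn15*, *Cldn7*, *Tjp1* and *Cldn3* were higher than in ISC and *Cldn2* and *Cldn8* were lower, at an FDR of 0.05 by the quasi-likelihood test of edgeR (Benjamini-Hochberg adjusted). These were 9 of 10 members, in a comparison where 53.1% of 16681 genes were called, 27.7% higher and 25.4% lower. In aged mice 7 members were higher (*Ocln* in place of *Cldn3*) and the same 2 were lower, where 64.1% of 15855 genes were called, 30% higher and 34.1% lower. The CPM of the 3 AE and 3 ISC libraries did not overlap for 9 members in young mice, against 62.9% of genes, and for 10 members in aged mice, against 69.8%. At an unadjusted p under 0.05 in edgeR stood 10 members in each comparison, against 59.2% and 67.6% of genes. The median log2 fold change of the members was 0.74 in young and 0.97 in aged mice, beside medians of 0.15 and -0.13 over all genes tested.

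The size of the smaller changes depended on the scaling. TMM factors were 1.26 to 1.37 in ISC and 0.720 to 0.823 in AE. With library totals alone, an alternative chosen after seeing the data, 2568 genes were higher and 7137 lower in young mice in place of 4623 and 4241, 2711 and 8468 in aged mice in place of 4754 and 5409, and the medians over all genes moved to -0.55 and -0.91. Under that setting 5 members were called at each age, *Cldn4*, *Cldn23* and *F11r* higher and *Cldn2* and *Cldn8* lower, and *Cldn3* and *Ocln* at both ages and *Tjp1* in young mice took the opposite, uncalled, direction.

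**Figure D1:**
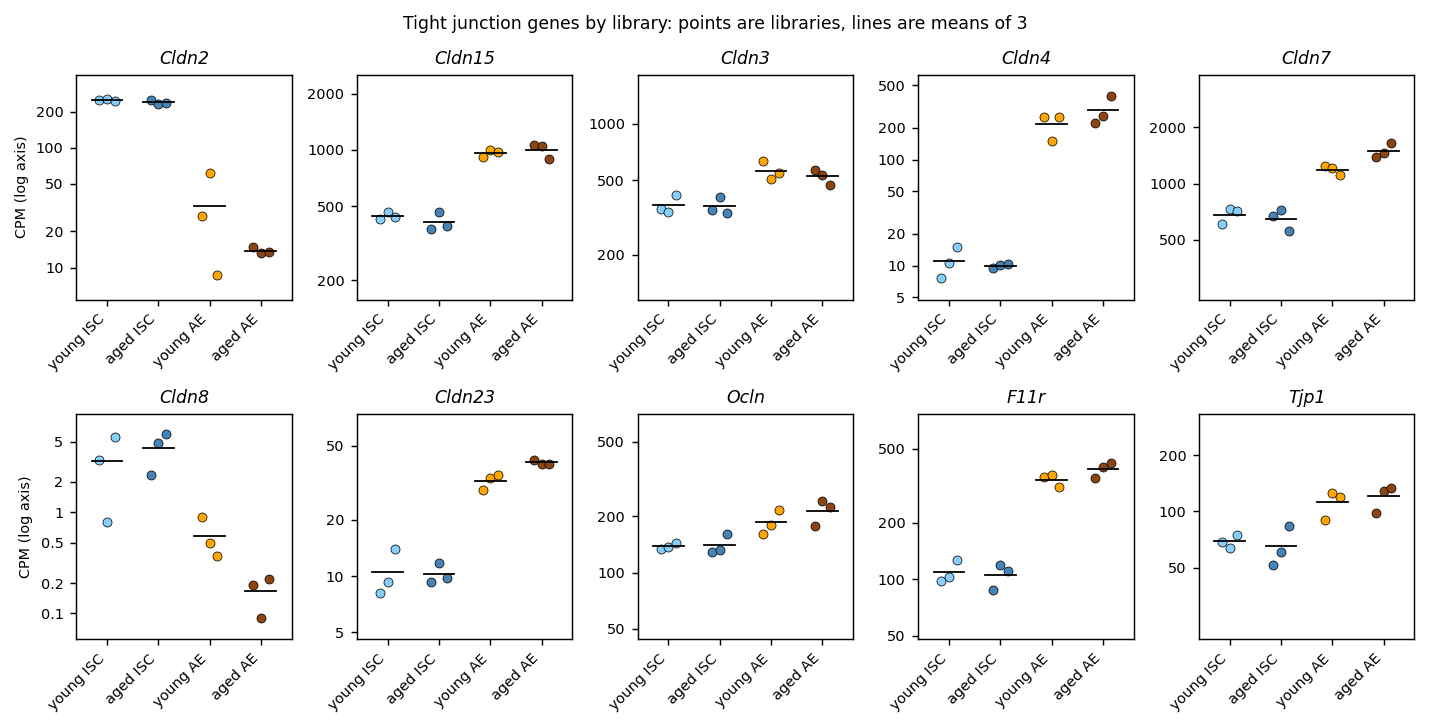
CPM (log axis) of each of the 10 genes in each of the 12 libraries, with points for libraries, in the order of their codes, and lines for means of 3. *Cldn2* and *Cldn8* sit higher in ISC, *Cldn4* is 11.1 CPM in young ISC against 218 CPM in young AE, and the 3 young AE libraries are spread from 8.65 to 62.0 CPM for *Cldn2*.

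*Cldn2* encodes a pore-forming claudin that lets cations and water pass between cells, and it lies on chromosome X from 139800828 to 139811386 on the plus strand of GRCm38. Of the members above 10 CPM it was the 1 that was lower in AE. *Cldn4* encodes a sealing claudin, a single-exon gene on chromosome 5 from 134945119 to 134946934 on the minus strand, and it had the largest rise. The 250 bases before the RefSeq start of each gene (GRCm38.p6, 5′ to 3′ on the strand of the gene) are shown because this pair moved furthest in opposite directions among members above 10 CPM in ISC or AE, with capitals at matches to 6 motifs of 6 letters. The motifs, searched on both strands, are spelled out after the sequences. 
Cldn2, chrX:139800558-139800807, plus strand: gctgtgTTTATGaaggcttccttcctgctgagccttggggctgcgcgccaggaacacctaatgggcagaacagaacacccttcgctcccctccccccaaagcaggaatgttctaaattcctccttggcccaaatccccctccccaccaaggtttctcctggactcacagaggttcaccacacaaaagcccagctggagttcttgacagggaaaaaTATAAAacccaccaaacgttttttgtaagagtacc
Cldn4, chr5:134946935-134947184, minus strand: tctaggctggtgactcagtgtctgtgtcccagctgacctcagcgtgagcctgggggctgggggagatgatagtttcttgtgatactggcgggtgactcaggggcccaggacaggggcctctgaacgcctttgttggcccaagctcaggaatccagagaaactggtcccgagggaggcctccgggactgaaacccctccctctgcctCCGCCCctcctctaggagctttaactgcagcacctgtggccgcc

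The *Cldn2* window held TTTATG, the core that CDX factors of the intestine bind, 244 bases before the start, letters found in 10.8% of 32851 RefSeq windows of the same length. It also held the box named TATA, searched as TATAAA, 35 bases before the start, as do 12.4% of all windows. The 2 matches did not overlap, although the reverse complement of the CDX core shares most of its letters with the box. The GC content of the *Cldn2* window was 52%. The *Cldn4* window held GGGCGG, the letters used for SP1 and KLF factors, on the opposite strand and 44 bases before the start, as do 32.7% of all windows, and its GC content was 62%. Not found in either window were the half-site of HNF1, spelled GTTAAT and held by 6.43% of all windows, the core of TCF factors, spelled TCAAAG and held by 13.8%, and the motif of GATA factors, spelled AGATAA and held by 9.99%. Of the 8 members with a RefSeq window, *Cldn2* was the 1 without GGGCGG in any window. These matches describe letters and no binding was measured.

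*Cldn2* was expressed at a nearly constant level in ISC. Its CPM was 249, 254 and 243 in the young ISC libraries Y1, Y2 and Y3 and 250, 232 and 236 in the aged ISC libraries O1, O3 and O5. In young AE it was 26.9, 62.0 and 8.65 in Y1, Y2 and Y3, and in aged AE 14.8, 13.2 and 13.4 in O1, O3 and O5. All 6 ISC libraries thus lay above all 6 AE libraries, and the young AE libraries spread on both sides of the aged ones. *Cldn2* was 7.71-fold lower in AE than in ISC of young mice (log2 fold change -2.95, SE 0.60, edgeR FDR 0.00411) and 18.2-fold lower in aged mice (log2 fold change -4.19, SE 0.16, edgeR FDR 3.25e-07). In young mice the log2 fold change was -3.95 without the AE library Y2 and -2.53 without the AE library Y3, and it was called either way.

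In young AE the libraries took the same order by *Cldn2* as by stem cell and proliferation markers. In aged AE this held for the proliferation markers, and the order by stem cell markers was the reverse. The summed CPM of 10 stem cell markers was 226, 644 and 97.0 in the young AE libraries Y1, Y2 and Y3, and that of 10 proliferation markers was 153, 444 and 85.5, both highest in Y2 and lowest in Y3. *Olfm4*, a stem cell marker, was at 90.1, 338 and 23.1 CPM in the same libraries and at 24.7 to 61.2 CPM in aged AE. In aged AE the stem marker sums were 111, 188 and 171 CPM in O1, O3 and O5, lowest where *Cldn2* was highest. The proliferation sums there were 107.4, 104.1 and 104.2 CPM, a narrow range in the same order as *Cldn2*. The part of crypt cells in the *Cldn2* level of AE was not tested.

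**Figure D2:**
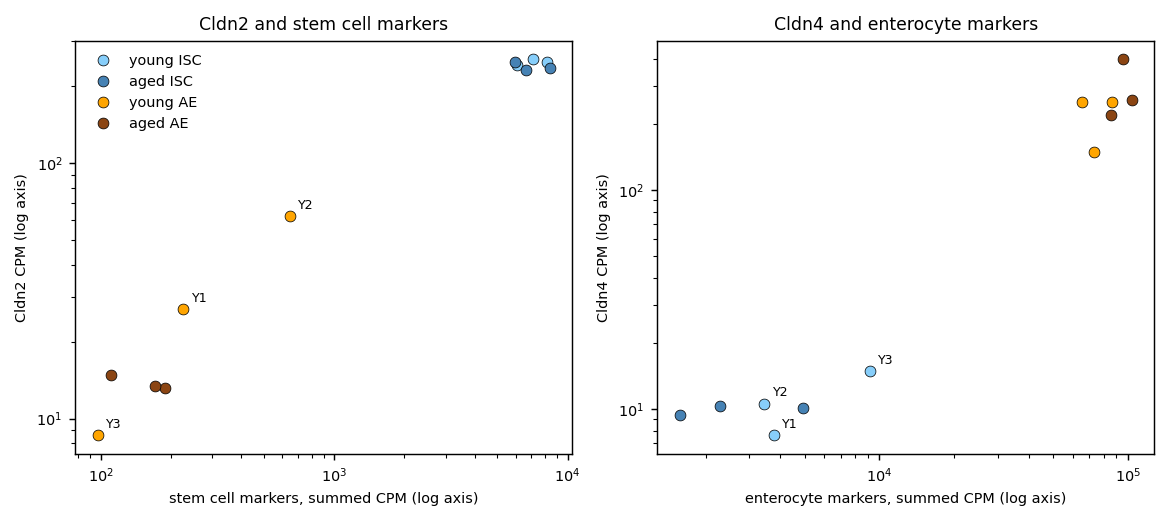
Left, *Cldn2* CPM against the summed CPM of 10 stem cell markers, and right, *Cldn4* CPM against the summed CPM of 12 enterocyte markers, 1 point a library on log axes. The young AE library Y2 has the most *Cldn2* (62.0 CPM) and the highest stem marker sum (644 CPM) among AE, and the young ISC library Y3 the most *Cldn4* (14.9 CPM) and the highest enterocyte marker sum (9159 CPM) among ISC.

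*Cldn15*, the other pore claudin of the group, forms sodium channels that serve nutrient uptake. The CPM in ISC were 428, 466 and 437 (young) and 376, 467 and 390 (aged), against 918, 995 and 976 (young) and 1064, 1043 and 896 (aged) in AE. The lowest AE library was above the highest ISC library, and within each cell type the ages overlapped. *Cldn15* was 2.17-fold higher in AE of young mice (log2 fold change 1.12, SE 0.18, edgeR FDR 0.0015) and 2.32-fold higher in aged mice (1.21, SE 0.20, edgeR FDR 4.51e-04). With library totals alone it was still higher, by 0.41 and 0.43 on the log2 scale, with edgeR FDR values of 0.0903 and 0.0558. After TMM scaling the 2 pore claudins thus moved in opposite directions. Their ratio within a library does not depend on the scaling and shows unequal change: for every 100 counts of *Cldn15* there were 49.7 to 66.5 counts of *Cldn2* in ISC and 0.886 to 6.23 in AE.

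*Cldn4* had the largest rise of the 10 genes at both ages. In young ISC its CPM was 7.65, 10.6 and 14.9, with 9.40, 10.1 and 10.3 in aged ISC. In young AE it was 252, 150 and 253, and in aged AE 221, 258 and 396. No AE library came near the ISC libraries, and the 2 ages overlapped in both cell types. The fold was 19.7 in young mice (log2 fold change 4.30, SE 0.33, edgeR FDR 1.16e-04) and 27.8 in aged mice (4.80, SE 0.25, edgeR FDR 5.11e-07). The highest ISC value, in young ISC library Y3, stood beside the highest summed CPM of 12 enterocyte markers among ISC, 9159 against 1570 to 4929 in the other 5 ISC libraries. Those 5 did not take the same order by *Cldn4* as by that sum. The sum was 3776 and 3445 in Y1 and Y2, and 1570, 4929 and 2278 in O1, O3 and O5. The part of enterocyte transcripts in the *Cldn4* values of ISC was not tested.

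*Cldn3*, a sealing claudin and like *Cldn4* a receptor for the enterotoxin of Clostridium perfringens, changed little. ISC held 350, 338 and 414 CPM when young and 347, 407 and 332 CPM when aged, and AE 636, 506 and 543 CPM when young and 569, 533 and 469 CPM when aged. The AE libraries lay above the ISC libraries, by a smaller margin than for *Cldn4*. It was called in young mice (log2 fold change 0.61, SE 0.19, edgeR FDR 0.0267) and not in aged mice (0.46, SE 0.18, edgeR FDR 0.0504), where a fit with the library code as a replicate block gave an FDR of 0.0204. The young call was lost on leaving out any 1 of 5 libraries (ISC Y1 or Y2, AE Y1, Y2 or Y3), and with library totals alone the log2 fold changes were -0.09 and -0.32. The span of *Cldn3* on chromosome 5 overlaps that of another gene, *Wbscr25*. The library kit kept strand, but whether the counting used it is not given in the sources used here.

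*Cldn7*, a claudin of the lateral membrane that binds Epcam, was the most abundant of the 10 genes in every group. Young ISC held 609, 726 and 712 CPM and aged ISC 668, 722 and 557 CPM, and young AE held 1237, 1213 and 1113 CPM and aged AE 1380, 1459 and 1646 CPM. The aged AE libraries were all above the young AE libraries, which were all above ISC. AE exceeded ISC by a log2 fold change of 0.80 in young mice (SE 0.20, edgeR FDR 0.0103) and 1.13 in aged mice (SE 0.21, edgeR FDR 9.87e-04), and with library totals alone by 0.10 and 0.35, neither called.

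*Cldn23*, a claudin known from luminal, differentiated epithelial cells, was low in ISC, with 8.16, 9.26 and 14.0 CPM (young) and 9.26, 11.7 and 9.82 CPM (aged). AE held 29.1, 33.5 and 34.7 CPM (young) and 41.9, 39.9 and 40.0 CPM (aged). The 4 groups took the order aged AE, young AE and then both ISC groups together, which overlapped. AE was 3.09-fold higher in young mice (log2 fold change 1.63, SE 0.24, edgeR FDR 9.00e-04) and 3.77-fold higher in aged mice (1.91, SE 0.16, edgeR FDR 5.63e-06).

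*Cldn8*, a sealing claudin best known from the colon and the distal nephron, had the lowest counts of the 10 genes in every group. It had 52, 14 and 99 counts in young ISC and 83, 90 and 133 counts in aged ISC, or 0.795 to 5.91 CPM. Young AE held 11, 6 and 31 counts (0.371 to 0.900 CPM) and aged AE 2, 1 and 2 counts, all under the limit of 3. ISC and AE of young mice overlapped, since ISC library Y2 (0.795 CPM) was below AE library Y1 (0.900 CPM), and in aged mice they did not. The ratio of the summed counts of ISC to those of AE was 7.26 in young mice, where AE library Y3 gave 31 of the 48 AE counts (95% counting interval 5.23 to 10.2) and 24.6 in aged mice (10.4 to 76.3), intervals that cover counting error only. The fitted log2 fold change in young mice was -2.53 (SE 0.75), and it ran from -1.86 without ISC library Y3 to -2.98 without ISC library Y2. *Cldn8* was called lower in AE at both ages (edgeR FDR 0.0209 and 7.4e-05), and in young mice the call was lost without ISC library Y1 (FDR 0.0566) or Y3 (FDR 0.0857).

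Of the members that are not claudins, *F11r* changed most. It encodes JAM-A, an adhesion molecule of the immunoglobulin family that recruits polarity proteins to the junction. ISC held 97.4, 103 and 127 CPM (young) and 88.0, 119 and 111 CPM (aged), and AE held 351, 360 and 311 CPM (young) and 348, 400 and 419 CPM (aged). The lowest AE library was above the highest ISC library by more than the spread within either cell type. The fold was 3.12 in young mice (log2 fold change 1.64, SE 0.18, edgeR FDR 3.03e-04) and 3.50 in aged mice (1.81, SE 0.19, edgeR FDR 1.96e-05).

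*Ocln*, which encodes occludin, a strand protein that is not needed for strands to form, differed little. Its CPM in ISC was 134, 137 and 145 at the young age and 129, 133 and 160 at the aged, and in AE 160, 179 and 216 at the young age and 177, 242 and 223 at the aged. The highest ISC library and the lowest AE library were both at 160 CPM. AE exceeded ISC by a log2 fold change of 0.42 (SE 0.17, edgeR FDR 0.0637, not called) in young mice and 0.53 (SE 0.18, edgeR FDR 0.0267) in aged mice. The aged call was lost without the ISC library O1 or O3 or the AE library O3 or O5, and with library totals alone the values were -0.29 and -0.26.

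*Tjp1* encodes ZO-1, the scaffold that ties claudins to actin. The ISC libraries held 69.0, 64.0 and 74.8 CPM (young) and 51.5, 60.9 and 83.2 CPM (aged), and the AE libraries 89.5, 126 and 119 CPM (young) and 98.4, 128 and 134 CPM (aged). The ISC and AE libraries did not overlap at either age. AE was higher by a log2 fold change of 0.69 in young mice (SE 0.17, edgeR FDR 0.011) and 0.81 in aged mice (SE 0.21, edgeR FDR 0.00685). The young call was lost without the AE library Y2 or Y3, and with library totals alone the values were -0.02 and 0.02. The span of *Tjp1* on chromosome 7 overlaps 3 unnamed gene models (*Gm44794*, *Gm44795* and *Gm44792*).

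**Figure D3:**
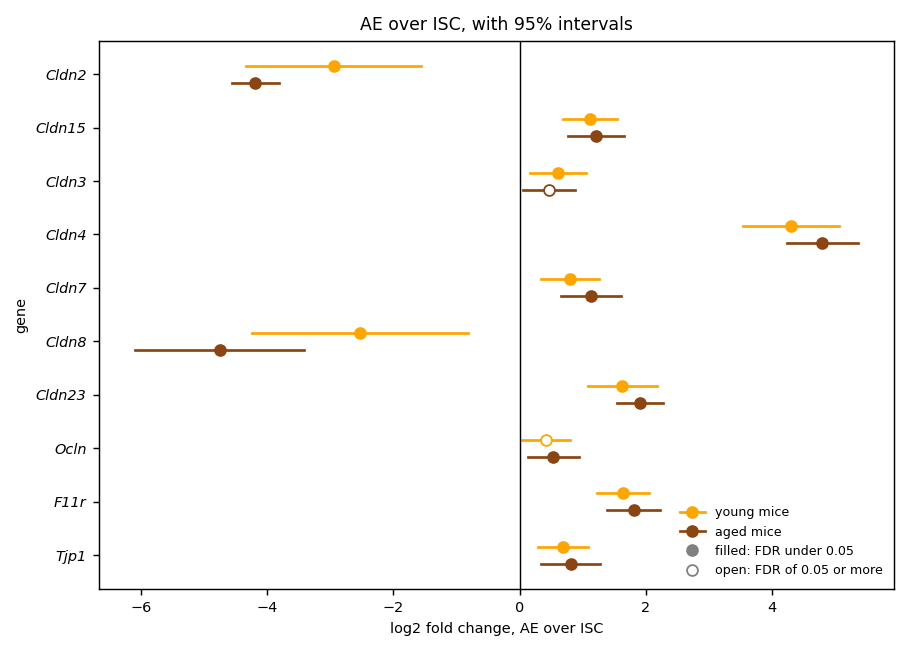
Log2 fold change of AE over ISC for each gene in young and aged mice, with 95% intervals from the edgeR fit and filled points for an FDR under 0.05. *Cldn4* lies at 4.30 and 4.80, *Cldn2* at -2.95 and -4.19, and the open points are *Ocln* in young mice and *Cldn3* in aged mice.

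Levels of different genes were compared per kilobase of merged exons. In young ISC the order by mean CPM per kilobase was *Cldn7* (350), *Cldn3* (292), *Cldn15* (209), *Cldn2* (74.8), *F11r* (41.0), *Ocln* (32.9), *Tjp1* (8.87), *Cldn4* (6.09), *Cldn23* (5.67) and *Cldn8* (1.37). In young AE it was *Cldn7* (610), *Cldn15* (453), *Cldn3* (446), *F11r* (128), *Cldn4* (120), *Ocln* (43.9), *Cldn23* (17.5), *Tjp1* (14.3), *Cldn2* (9.78) and *Cldn8* (0.250). *Cldn2* thus stood in the 4th place in young ISC and in the 9th in young AE, and *Cldn4* in the 8th and the 5th.

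The make-up of the claudins was described by their shares, with no test. Shares of the summed CPM per kilobase of the 7 claudins do not depend on the scaling of libraries. *Cldn2* made up 6.99% to 8.67% in the 6 ISC libraries and 0.160% to 1.16% in the 6 AE libraries, and *Cldn4* 0.480% to 0.830% and 5.14% to 11.6%. Of the abundant claudins *Cldn7* was 37.3% ± 1.86 (SD, n = 3) in young ISC and 36.8% ± 1.71 in young AE, and *Cldn15* was 22.3% ± 1.33 and 27.4% ± 2.21. For *Cldn3* the share was 31.1% ± 2.51 (ISC) and 26.9% ± 2.11 (AE) in young mice and 32.0% ± 0.628 (ISC) and 22.6% ± 2.63 (AE) in aged mice. In aged mice *Cldn7* was 37.0% ± 1.97 in ISC and 41.6% ± 2.94 in AE (SD, n = 3). *Cldn15* was 21.5% ± 1.28 in aged ISC and 25.6% ± 2.83 in aged AE. The 7 claudins together summed to 1540 to 1854 CPM in ISC and 2929 to 3461 CPM in AE.

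**Figure D4:**
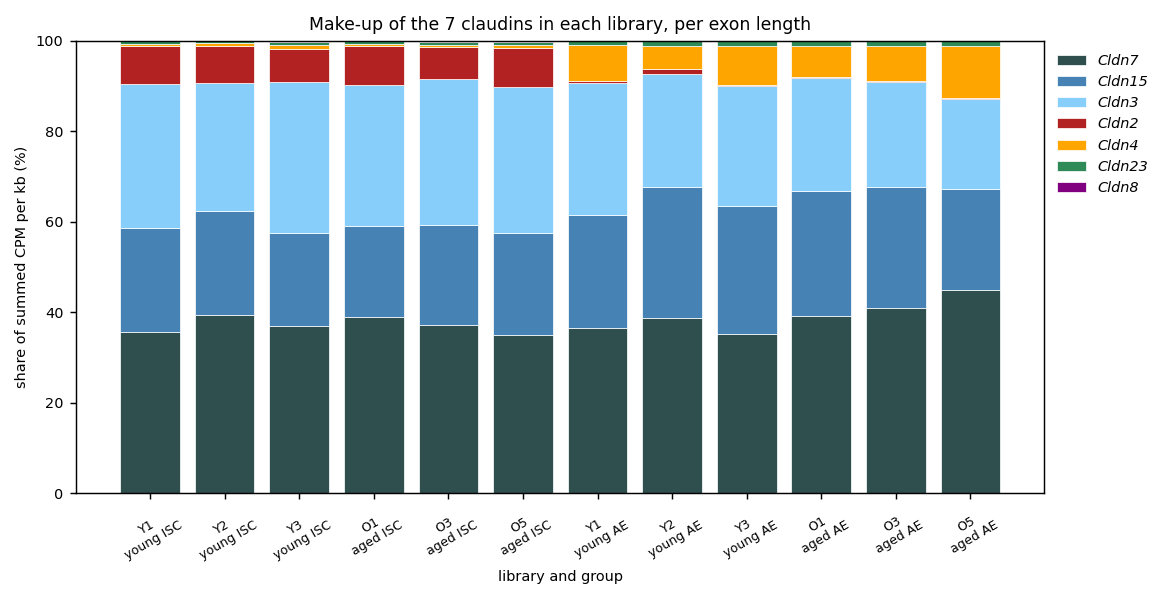
Share of each of the 7 claudins in their summed CPM per kilobase, 1 bar a library. *Cldn2* fills 6.99% to 8.67% of the ISC bars and at most 1.16% of the AE bars, where *Cldn4* takes 5.14% to 11.6%.

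Age changed none of the 10 genes past the threshold in ISC. In aged against young ISC 0 members were called and 0 were at an unadjusted p under 0.05 by edgeR's quasi-likelihood test, where 0% of 15552 genes were called and 4.47% were at that unadjusted p. DESeq2 called 58 genes and 0 members. The log2 fold changes of the members ran from -0.15 for *Cldn4* to 0.44 for *Cldn8*, with a median of -0.04 beside 0.01 over all genes. The young and aged ISC libraries overlapped for every member, against 8.86% of genes that did not overlap. The 95% interval for *Cldn2* was -0.35 to 0.25 and that for *Cldn7* -0.43 to 0.30 on the log2 scale, and the one for *Cldn8*, at low counts, was -0.94 to 1.82.

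In aged against young AE 0 members were called, 0 were at an unadjusted p under 0.05, and 0% of 16265 genes were called, with 4.97% at that unadjusted p. DESeq2 called 18 genes and 0 members. The libraries of the 2 ages did not overlap for 3 members, against 10.9% of genes. These were *Cldn7* (log2 fold change 0.35, 95% interval -0.03 to 0.73) and *Cldn23* (0.34, -0.0029 to 0.68), both with higher values in aged AE, and *Cldn8* (-1.75, -3.65 to 0.16), with lower ones, and each had an edgeR FDR of 0.833. For *Cldn8* this was 48 counts in young against 5 in aged AE, a ratio of 2.74 after scaling (95% counting interval 1.10 to 8.83). That interval covers counting error only. The deep library Y3 gave 31 of the 48 counts, and the aged AE libraries had 1 to 2 counts each, under the limit of 3. The difference in *Cldn2* (log2 fold change -1.21, SE 0.57, edgeR FDR 0.833) rested on young AE library Y2: without it the value was -0.31, and without Y3 it was -1.67. The *Cldn4* means in AE were 218 ± 58.9 CPM for young and 292 ± 92.2 CPM for aged mice (SD, n = 3), a log2 fold change of 0.44 (SE 0.27, edgeR FDR 0.833).

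Whether age acted differently in AE and ISC was tested as an interaction over all 12 libraries. No member was called, 0 were at an unadjusted p under 0.05 by edgeR (4.36% of genes were), and 1 of 17377 genes (0.00575%) was called, while DESeq2 called 43 genes and 0 members. With the library code as a replicate block 21 genes and 0 members were called. The values furthest from 0 were -2.15 for *Cldn8* (SE 1.08) and -1.16 for *Cldn2* (SE 0.64), both with an edgeR FDR of 1.00. For *Cldn2* the value was -0.28 without the young AE library Y2 and -1.68 without Y3, and for *Cldn8* it was -1.69 without the young ISC library Y2 and -2.81 without Y3. The contrasts by age and by cell type share their libraries, so they are given side by side.

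**Figure D5:**
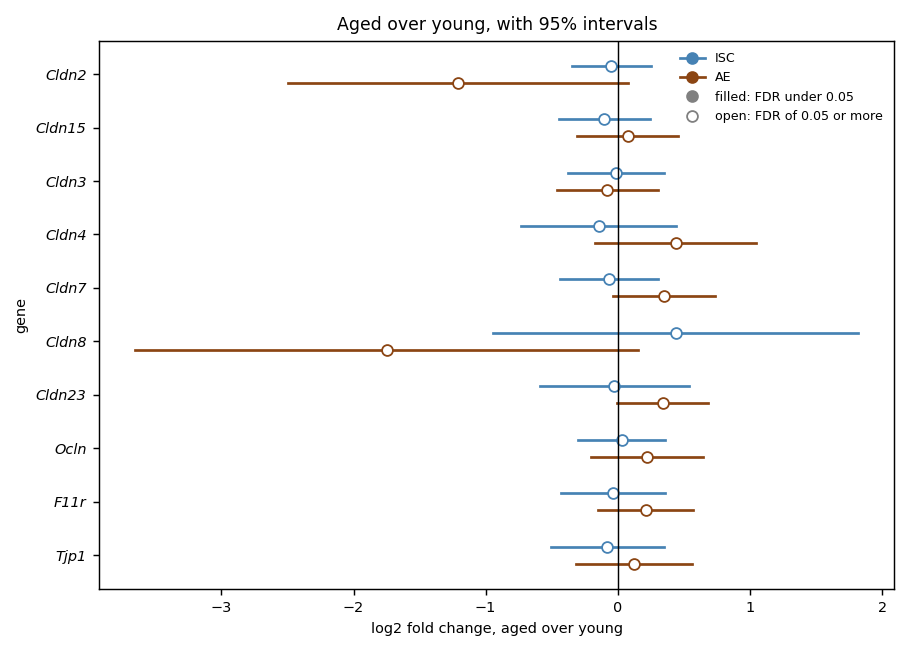
Log2 fold change of aged over young for each gene in ISC and AE, with 95% intervals from the edgeR fit. Every point is open (FDR of 0.05 or more), the ISC values lie between -0.15 and 0.44, and *Cldn2* (-1.21) and *Cldn8* (-1.75) lie furthest from 0 in AE.

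Of 17 other claudins listed, 7 passed the filter on low counts in young mice and 4 in aged mice. *Cldn12* was the 1 with a mean of at least 1 CPM, at 69.5 ± 7.08 and 68.5 ± 4.54 CPM in ISC and 47.3 ± 5.06 and 49.9 ± 1.37 CPM in AE of young and aged mice (SD, n = 3). It fell by 0.56 and 0.53 on the log2 scale from ISC to AE (edgeR FDR 0.0178 and 0.00729). In all, 2 of the 7 were called higher and 1 lower in young mice, and 0 higher and 2 lower of the 4 in aged mice, beside 27.7% higher and 25.4% lower of all genes in young and 30% and 34.1% in aged mice.

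Among 10 other membrane proteins of the junction, 4 were called higher in AE in young mice and 5 in aged mice, of 10 and 8 tested, and none lower, beside 27.7% and 30% of all genes called higher. Called at both ages were *Igsf5* (JAM4, an adhesion molecule), with log2 fold changes of 1.81 and 2.09, *Crb3* (an apical polarity protein), with 1.10 and 1.29, *Cxadr* (the coxsackie and adenovirus receptor), with 1.08 and 1.23, and *Marveld3* (a relative of occludin), with 0.79 and 0.89, in young and aged mice.

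Scaffold, polarity and signalling genes of the junction went both ways. Of 27 tested, 16 were called higher and 7 lower in AE of young mice and 15 and 8 in aged mice, and 15 and 7 were called in the same direction at both ages. Among all genes 53.1% were called in young and 64.1% in aged mice. The largest rises were those of *Arhgef2* (GEF-H1, a signalling protein held at junctions), by 2.49 and 2.98 on the log2 scale, *Mylk* (myosin light chain kinase, which regulates junction permeability), by 2.44 and 2.55 and *Mpp5* (a polarity scaffold), by 1.46 and 1.90. *Magi2*, a scaffold also called higher at both ages, had 0 to 3 counts in the ISC libraries and 1 to 46 counts in the AE libraries, too few for a fold to be given. Lower in AE were *Cgnl1* (paracingulin), at 11.1 and 0.307 CPM in ISC and AE of young mice, *Amotl1* (an angiomotin), at 2.48 and 0.111 CPM, *Pard6g* (a polarity protein), at 3.19 and 0.432 CPM, and *Ybx3* (ZONAB, a transcription factor bound by ZO-1), at 409 and 98.6 CPM. *Amotl1* had only 0, 2 and 14 counts in the young AE libraries Y1, Y2 and Y3, with Y1 and Y2 under the limit of 3. In aged AE *Cgnl1* and *Amotl1* had 0 counts. With 3 counts over the whole group as the floor, *Cgnl1* was 76.3-fold and *Amotl1* 11.5-fold lower than in aged ISC. With 3 counts a library as the floor both folds would be smaller. *Amotl1* had 61, 20 and 5 counts in the aged ISC libraries O1, O3 and O5. Its value in O5, 0.222 CPM, was under the limit of detection of the aged AE libraries (0.269 to 0.327 CPM).

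Of 5 tested partners of claudins, 3 were called higher and 1 lower in AE in young mice and 4 and 1 in aged mice, beside 53.1% and 64.1% of all genes called in either direction. *Spint1*, an inhibitor of membrane serine proteases, rose by 1.83 and 2.23 on the log2 scale. *St14*, the protease matriptase, rose by 0.63 and 0.78. *Epcam*, whose protein binds *Cldn7* and on which AE were sorted, rose by 0.73 and 0.99. *Prss8*, the protease prostasin, fell by 0.90 and 0.81. Of 58 listed junction genes tested in ISC and 66 in AE, 0 were called with age by edgeR, and 2 and 6 were at an unadjusted p under 0.05, beside 4.47% and 4.97% of all genes.

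For each member the gene with the most similar pattern was found by Pearson's r of log2 CPM over the 12 libraries, among 9393 genes with a mean of at least 10 CPM. The 12 points fall into separate ISC and AE sets and share their libraries and depth, so r is given as a description. The nearest genes were *Nap1l1* for *Cldn2* (r = 0.998), *Gosr2* for *Cldn15* (0.995), *Syp* for *Cldn3* (0.975), *Fam3c* for *Cldn4* (0.996), *Dync1i2* for *Cldn7* (0.988), *Cept1* for *Cldn23* (0.996), *Sos1* for *Ocln* (0.981), *Anks4b* for *F11r* (0.998) and *Arfgef2* for *Tjp1* (0.991). *Cldn8*, itself under 10 CPM, came closest to *Cep89* (0.943).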

How the data were processed

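RNA of sorted ISC and AE was sequenced as 50 bp single-end reads. Before deposit the authors trimmed reads with Trim Galore (0.4.4), mapped them to GRCm38 with HISAT2 (2.1.0) and counted uniquely mapped reads in SeqMonk, per gene over merged exons, so the deposited values are raw counts. The annotation release and the strand setting of the counting are not given in the sources used here. A second deposited table with 49 genes and the authors' own comparisons was not used.

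Counts were analysed in R 4.3.3. Genes summing to 10 counts or more over the libraries compared were kept, TMM factors were computed, and edgeR 4.0.16 was run (glmQLFit and glmQLFTest) with Benjamini-Hochberg adjustment over all genes and a threshold of 0.05. Each comparison was fitted on its own 6 libraries and the interaction on 12. The 95% intervals use the moderated degrees of freedom. DESeq2 1.42.0, other scalings and filters, a fit on 4 groups, the library code as replicate block and omission of single libraries were alternatives. Exon lengths are those of GENCODE M21 and promoters those of RefSeq (8 of 10 members matched).

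ISC and AE libraries that share a code showed correlated deviations from the means of their groups (r at 0.213 or more in all 6 pairs, at most 0.431, whereas 12 pairs of unlike codes had -0.376 to 0.110), which is taken as pairing. The 3 deviations of a gene in a group sum to 0, so the values of unlike codes are not an independent baseline for those of shared codes. Replicates of a group correlated with r from 0.967 to 0.983 and differed beyond sampling noise. The methods list 3 ages for each cohort but do not tie a library to an animal, so p-values are read as measuring the spread between libraries. The members, gene lists and marker lists were chosen with earlier results of these data known. Named beside the 10 members are, per list, at most the 4 largest rises and 4 largest falls of AE over ISC called at both ages (by the mean of both ages), claudins with a mean of at least 1 CPM, and the gene nearest to each member.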

Additional observations from a re-analysis of the deposited data

How the results depend on the processing

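Of the 10 genes, *Cldn2*, *Cldn4*, *Cldn23* and *F11r* kept their direction and stayed called between AE and ISC under every alternative run at both ages. *Cldn8* did so in aged mice. Called here means an edgeR FDR under 0.05, or a DESeq2 adjusted p under 0.05 in the DESeq2 alternative. The number of members called in AE against ISC was 9 at each age, beside 53.1% and 64.1% of all genes in young and aged mice. With library totals alone 5 members were called at each age, beside 9705 of 16681 genes in young and 11179 of 15855 in aged mice. Without both the young AE library Y2 and the young ISC library Y3, 5 were called in young mice (4 higher and 1 lower), beside 7777 of 16444 genes. Both alternatives were chosen after seeing the data. With the library code as a replicate block 9 members were called in young and 10 in aged mice, where *Cldn3* was added. Of all genes 8997 of 16681 and 10513 of 15855 were called there, and the block changed no other call of a member. Leaving out 1 library gave 7 to 8 members in young and 8 to 9 in aged mice, beside 7040 to 8595 and 9039 to 10063 genes. With library totals alone the log2 fold changes of AE over ISC turned to -0.089 (*Cldn3*), -0.29 (*Ocln*) and -0.016 (*Tjp1*) in young mice and to -0.32 (*Cldn3*) and -0.26 (*Ocln*) in aged mice, and those of aged over young to 0.016 (*Cldn3*) and 0.0091 (*Cldn23*) in ISC and -0.055 (*Cldn15*) and -0.0099 (*Tjp1*) in AE. Upper-quartile scaling gave 8.65e-04 for *Cldn3* in aged over young ISC. The cause of these turns was not tested.

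Leaving out 1 library at a time turned small log2 fold changes, none of them called. In aged over young ISC they ranged from -0.11 to 0.082 (*Cldn3*), -0.35 to 0.13 (*Cldn4*), -0.15 to 0.038 (*Cldn7*), -0.024 to 1.10 (*Cldn8*), -0.18 to 0.24 (*Cldn23*), -0.071 to 0.087 (*Ocln*), -0.13 to 0.090 (*F11r*) and -0.29 to 0.065 (*Tjp1*). In aged over young AE they ranged from -0.14 to 0.013 (*Cldn3*) and -0.013 to 0.25 (*Tjp1*), and for the difference between AE and ISC from -0.18 to 0.014 (*Cldn3*), -0.0013 to 0.29 (*Ocln*) and -0.037 to 0.41 (*Tjp1*).

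The number of members called by age and for the interaction was 0 under all alternatives, DESeq2 included. For the 2 contrasts by age no paired fit was run, because libraries of different ages share no code. Depth limits *Cldn8* most, at 1 to 2 counts a library in aged AE. Which scaling is the right one was not tested. The AE libraries gave 8.50% to 13.1% of counts to their 10 most abundant genes and the ISC libraries 4.17% to 6.06%.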

Other observations

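The neighbouring junctions of the same cells were described with lists of adherens junction and desmosome genes. Of 11 adherens junction genes tested, 6 were higher and 1 was lower in AE than in ISC at both ages by edgeR's quasi-likelihood test, beside 53.1% and 64.1% of all genes called in young and aged mice. *Cdh17*, the liver-intestine cadherin, rose by 1.67 and 1.80 on the log2 scale in young and aged mice, from 688 ± 123 CPM in ISC to 2189.9 ± 331 CPM in AE of young mice (SD, n = 3). *Ctnna1* (alpha-catenin) rose by 1.03 and 1.20, *Ctnnd1* (p120-catenin) by 0.87 and 0.96 and *Nectin2* (an adhesion molecule) by 0.87 and 0.93. *Nectin4* was lower, at 2.20 and 0.217 CPM in ISC and AE of young mice, and at 4.08 CPM and 0 counts in those of aged mice. With 3 counts over the whole group as the floor, it was 41.8-fold lower in aged AE than in aged ISC. With 3 counts a library as the floor this fold would be smaller. *Cdh1* (E-cadherin), named after its values were seen, was at 821 ± 19.5 and 871 ± 85.5 CPM in ISC and AE of young mice (SD, n = 3) and was not called (log2 fold change 0.08, edgeR FDR 0.732).

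Of 6 desmosome genes tested, 4 were higher in AE at both ages and none was lower, beside 27.7% and 30% of all genes called higher in young and aged mice. *Pkp3* (a plakophilin) rose by 1.11 and 1.39 on the log2 scale, *Dsg2* (a desmosomal cadherin) by 1.08 and 1.34, *Dsc2* (its partner cadherin) by 1.03 and 1.07 and *Ppl* (periplakin) by 0.79 and 0.89. In the age comparisons 0 of the 11 and 0 of the 6 were called by edgeR in either cell type. The direction of these genes under other scalings was not computed.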
